A study of Mus musculus with 15 samples.

Results

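The Notch pathway in wounded and normal skin was examined through 10 genes of 18929 in the table, namely the 4 receptor genes Notch1, Notch2, Notch3 and Notch4, the 3 ligand genes Jag1, Jag2 and Dll1, and the 3 target genes Hes1, Hey1 and Heyl. They were picked by symbol as named receptor, ligand and target genes, with earlier results of these data known, and all 10 passed the filter on low counts. Bulk RNA was sequenced from 15 skin samples of male balb/c mice, labelled WT and 4 to 6 weeks old at wounding, in 5 groups of 3. The groups were normal skin (normal growth), acellular 10 mm and acellular 15 mm skin (full-thickness dorsal wounds filled with acellular Matrigel beads), and HDB 10 mm and HDB 15 mm skin (wounds of the same sizes printed sparsely with Matrigel beads that held human umbilical cord mesenchymal stem cells, MSCs, at high density, the gaps being filled with acellular beads). All 12 wounded samples therefore carried Matrigel. The comparison of HDB with acellular skin asked what the MSCs added, while normal skin gave the unwounded level. The methods state an implantation of 4 weeks for sequenced skin, while the wound experiment is said to end on day 21. HDB skin can also hold human RNA, which a table of mouse genes does not tell apart from mouse RNA. The labels do not say whether the samples of a group came from separate mice, so that p-values measure the spread between these samples only.

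Notch signalling passes between cells that touch. A Jagged or Delta-like ligand on the surface of a cell binds a Notch receptor on its neighbour, ADAM proteases and then gamma-secretase cut the receptor, and the freed intracellular domain enters the nucleus, where it joins the DNA-binding protein RBPJ and a Mastermind coactivator and turns on genes such as those of the Hes and Hey repressors. In skin the pathway is known for keratinocyte differentiation and for the maintenance of the hair follicle, and in vessels for arterial identity and for the coverage of the endothelium by mural cells.

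Total counts per sample lay between 15840551 and 18404188. The labelled tissue held its markers, since none of 10 epidermal and none of 7 fibroblast markers was at 0 in any sample. Wounded samples differed in marker levels from normal skin and from each other. A list of 20 hair shaft and inner root sheath markers summed to 20.2 to 21.6 CPM (counts scaled to library size) in normal skin, where 8 of the 20 (Krt33b, Krt81, Krt83, Krt86, Krt25, Krt26, Krt72 and Krt73) were at 0 in all 3 samples. The same list summed to 26522 CPM in acellular 15 mm replicate 1, a sample that stands apart, and to at most 2266 CPM in any other sample. Skeletal muscle markers (9 genes) summed to 53647 to 66100 CPM in normal and 712 to 39476 CPM in wounded skin, and macrophage markers (8 genes) to 291 to 797 and 70.0 to 406 CPM, and their part in the comparisons with normal skin was not tested. Between HDB and acellular skin no marker of any of the 8 lists was called at either size in the fit of all 15 samples, although several lists differed in level. Median log2 fold changes of HDB against acellular skin at 10 mm and 15 mm were -4.87 and -4.18 over the hair markers, 1.19 and 0.97 over the fibroblast markers, 0.62 and 0.44 over the endothelial markers and -0.13 and -1.15 over 8 proliferation markers. Over the other lists they were -0.03 and 1.10 for skeletal muscle, 0.48 and 0.81 for macrophage, 0.33 and 0.36 for mural cell and -0.01 and 0.32 for epidermal markers. The hair list means (log2 CPM) were 9.72, 6.54 and 0.89 in the acellular and 5.32, 2.90 and 2.89 in the HDB 15 mm samples, and the proliferation list means 6.91, 4.42 and 4.64 against 4.69, 4.51 and 4.67, so the groups overlapped for both lists. Without acellular 15 mm replicate 1 the 15 mm medians were -1.42 over the hair, 0.15 over the proliferation, 0.62 over the fibroblast, 0.25 over the endothelial and 0.73 over the muscle markers. Without acellular 15 mm replicate 2 the muscle median was 3.13. Without acellular 10 mm replicate 1 the hair median at 10 mm was -2.90. Without acellular 15 mm replicate 3, 9 of 20 hair and 4 of 8 proliferation markers were called lower and 7 of 7 fibroblast markers higher, against 14.9% of all genes. The 15 mm comparisons of the 10 genes were also run without acellular replicate 1.

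In levels per kilobase of transcript, averaged over the 15 samples, Jag2 was highest at 39.8 CPM per kb, followed by Hes1 at 35.4, Jag1 at 27.8 and Notch1 at 19.6. Dll1, Notch2 and Notch3 lay close together at 10.6, 10.3 and 10.3 CPM per kb. Notch4, Hey1 and Heyl were lowest at 5.28, 4.98 and 3.39 CPM per kb. The order at the top differed between samples. Jag1 exceeded Jag2 in 1 of 15 samples, acellular 15 mm replicate 1 (70.3 against 39.1), and Hes1 exceeded Jag2 in 5 of 15, namely that sample, HDB 15 mm replicates 2 and 3 and normal replicates 2 and 3. All levels below are CPM after TMM normalization, which is not corrected for length and compares samples, not genes.

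**Figure D1:**
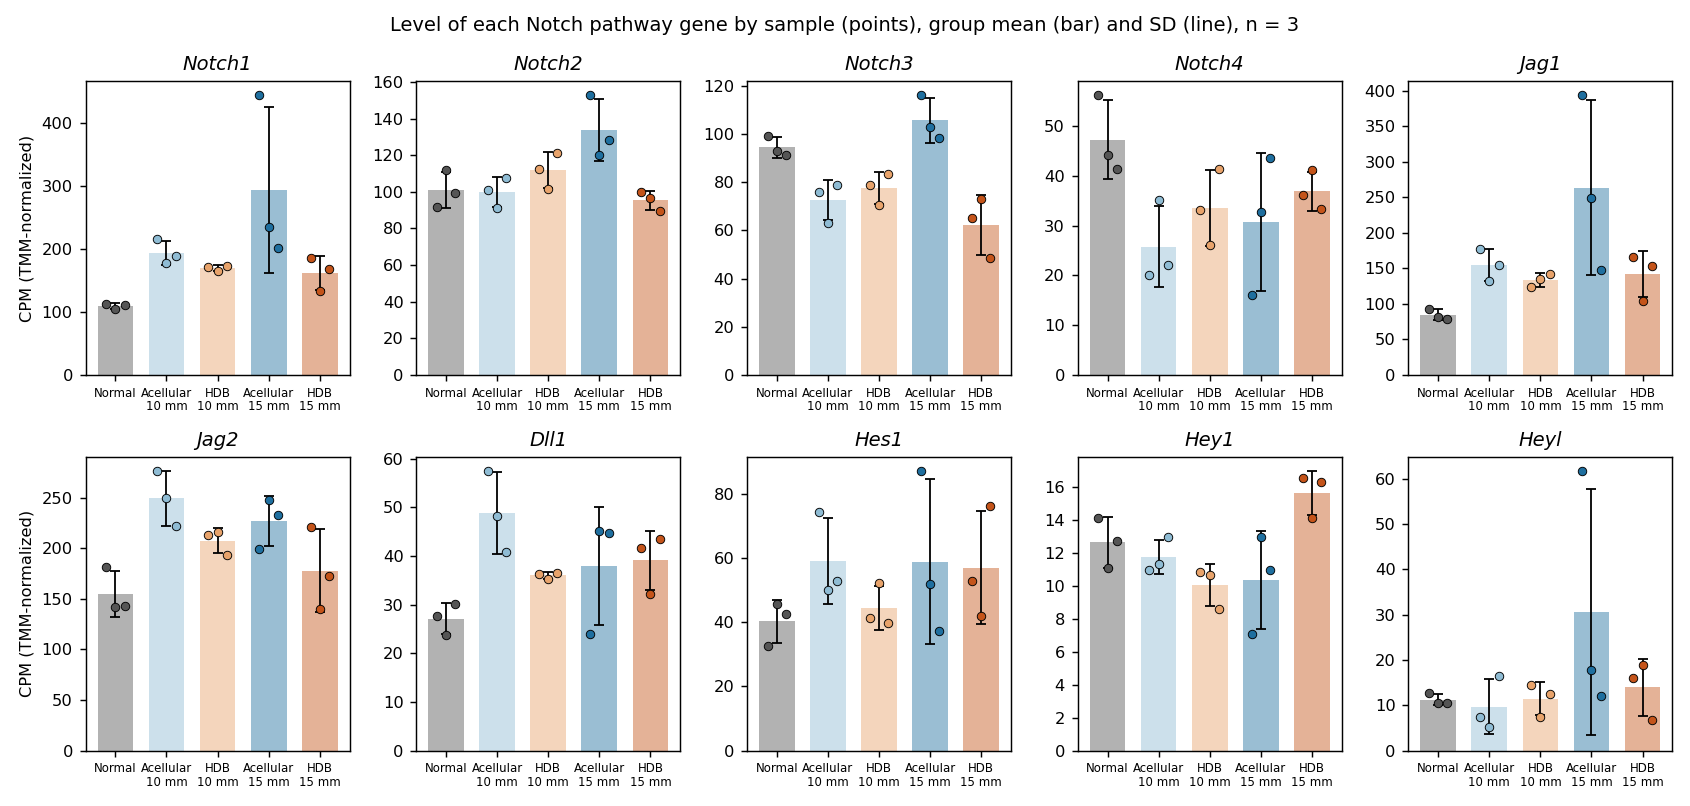
CPM (TMM-normalized, linear axes from 0) of each gene in the 5 groups, where points are samples, bars are group means and lines are SD (n = 3). Notch1 and Jag1 were lowest in normal skin, and acellular 15 mm replicate 1 was the highest sample for Notch1 at 444 CPM, Jag1 at 394 CPM and Heyl at 61.8 CPM.

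Notch1 (Entrez 18128, GRCm38 chr2:26457902-26503822), the receptor known for keratinocyte differentiation, was read at 112, 105 and 112 CPM in normal skin, 215, 177 and 189 in acellular 10 mm, 171, 165 and 173 in HDB 10 mm, 444, 235 and 201 in acellular 15 mm and 185, 133 and 169 in HDB 15 mm skin. Every wounded sample lay above every normal sample. In order of group means, acellular 15 mm skin came first at 293 ± 132 CPM (SD, n = 3), followed by acellular 10 mm at 194 ± 19.3, HDB 10 mm at 169.6 ± 4.23, HDB 15 mm at 162 ± 26.9 and normal skin at 109.5 ± 4.31. Among neighbours in that order, only acellular and HDB 10 mm skin, and HDB 15 mm and normal skin, did not overlap.

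Notch2 (Entrez 18129, chr3:98013538-98150367), a broadly expressed receptor, was the least variable of the receptors between groups. Its samples were at 91.9, 112 and 99.5 CPM in normal skin, 101, 91.03 and 108 in acellular 10 mm, 112, 102 and 122 in HDB 10 mm, 153, 120.1 and 129 in acellular 15 mm and 99.9, 96.8 and 89.5 in HDB 15 mm skin. The 3 acellular 15 mm samples lay above all normal, acellular 10 mm and HDB 15 mm samples, and the other groups overlapped one another apart from HDB 10 mm skin, which lay wholly above HDB 15 mm skin.

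Notch3 (Entrez 18131, chr17:32120820-32166896), the receptor of vascular smooth muscle and pericytes, was at 99.3, 93.00 and 91.2 CPM in normal skin, 76.03, 63.2 and 78.8 in acellular 10 mm, 78.6, 70.4 and 83.5 in HDB 10 mm, 116, 103 and 98.2 in acellular 15 mm and 65.3, 72.99 and 48.6 in HDB 15 mm skin. Acellular 15 mm and normal samples overlapped at the top, and all samples of the other 3 groups lay below both. Normal and HDB 10 mm skin were the only neighbours in the order of means whose samples did not overlap.

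Notch4 (Entrez 18132, chr17:34564286-34588543), a receptor known mainly from endothelium, was the only receptor with its highest mean in normal skin, at 47.2 ± 7.94 CPM against 25.7 ± 8.15 in acellular 10 mm skin. Its samples were at 56.2, 44.1 and 41.3 CPM in normal skin, 19.98, 35.04 and 22.1 in acellular 10 mm, 33.1, 26.1 and 41.4 in HDB 10 mm, 16.04, 32.7 and 43.6 in acellular 15 mm and 36.2, 41.1 and 33.4 in HDB 15 mm skin. The 4 wounded groups overlapped one another, and acellular 10 mm and HDB 15 mm skin lay wholly below normal skin.

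Among the ligands, Jag1 (Entrez 16449, chr2:137081451-137116520), a Jagged ligand of the hair follicle and of vessels, was at 93.5, 81.02 and 79.02 CPM in normal skin, 178, 132 and 155 in acellular 10 mm, 124, 136 and 143 in HDB 10 mm, 394, 249 and 148 in acellular 15 mm and 166, 105 and 154 in HDB 15 mm skin. As for Notch1, all 12 wounded samples exceeded all 3 normal samples. The wounded groups overlapped one another, except that acellular 15 mm skin lay wholly above HDB 10 mm skin.

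Jag2 (Entrez 16450, chr12:112907803-112929812), a Jagged ligand of the epidermis, was at 181, 141 and 142 CPM in normal skin, 276, 249.8 and 222 in acellular 10 mm, 213, 216 and 193 in HDB 10 mm, 199, 248 and 233 in acellular 15 mm and 221, 140.0 and 172 in HDB 15 mm skin. HDB 15 mm skin was the only wounded group that overlapped normal skin. Neighbouring groups in the order of means, from 249 ± 27.2 CPM in acellular 10 mm to 155 ± 22.8 in normal skin, all overlapped.

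Dll1 (Entrez 13388, chr17:15367354-15376932), a Delta-like ligand, was at 27.7, 23.7 and 30.05 CPM in normal skin, 57.5, 48.2 and 40.7 in acellular 10 mm, 36.2, 35.2 and 36.6 in HDB 10 mm, 23.98, 45.2 and 44.8 in acellular 15 mm and 41.6, 32.3 and 43.6 in HDB 15 mm skin. All wounded samples but acellular 15 mm replicate 1, at 23.98 CPM, lay above the normal ones.

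The target genes showed no common order of groups. Hes1 (Entrez 15205, chr16:30065357-30067796), a transcriptional repressor, was at 32.7, 45.6 and 42.5 CPM in normal skin, 74.4, 49.9 and 52.8 in acellular 10 mm, 41.3, 52.2 and 39.9 in HDB 10 mm, 87.2, 51.99 and 37.3 in acellular 15 mm and 52.7, 42.01 and 76.3 in HDB 15 mm skin. Its neighbouring groups all overlapped, and its SD reached 43.6% of the mean in acellular 15 mm skin.

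Hey1 (Entrez 15213, chr3:8663359-8667038), a related repressor, was low, at 14.1, 11.05 and 12.7 CPM in normal skin, 10.96, 11.3 and 12.9 in acellular 10 mm, 10.8, 10.7 and 8.55 in HDB 10 mm, 7.09, 12.95 and 10.9 in acellular 15 mm and 16.5, 14.1 and 16.3 in HDB 15 mm skin. It was highest in HDB 15 mm skin, the only gene of the 10 with that order, where only replicate 2 did not exceed all normal samples. Heyl (Entrez 56198, chr4:123233556-123249870), another Hey family member, was at 12.6, 10.6 and 10.6 CPM in normal skin, 7.42, 5.17 and 16.5 in acellular 10 mm, 14.6, 7.37 and 12.5 in HDB 10 mm, 61.8, 17.9 and 12.2 in acellular 15 mm and 16.1, 18.98 and 6.83 in HDB 15 mm skin. Apart from acellular 15 mm replicate 1, its samples spread between 5.17 and 19.0 CPM, and no neighbouring groups were separate.

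Against normal skin, acellular wounds showed higher Notch1 and Jagged ligand levels at both sizes. In acellular 10 mm skin 4 of the 10 genes rose (Notch1, Jag1, Jag2 and Dll1) and none fell at an adjusted p under 0.05 (edgeR's quasi-likelihood test over 15369 genes, Benjamini-Hochberg adjustment), where 20.3% of all genes were called and 9.77% were called higher and 10.6% lower. In acellular 15 mm skin 4 rose (Notch1, Jag1, Notch2 and Jag2) and none fell, against 30.2% of all genes called and 17.6% called higher and 12.6% lower. In HDB 10 mm skin none of the 10 was called, against 12.3% of all genes (6.1% higher and 6.23% lower). In HDB 15 mm skin Notch3 alone was called, lower, against 5.18% of all genes called with 2.67% called higher and 2.51% lower. These 4 comparisons share the normal samples. Groups that did not overlap normal skin were seen for 5 of the 10 genes above and 2 below it in acellular 10 mm skin (29.1% and 27.2% of all genes), 4 and 0 in acellular 15 mm (22.5% and 21.5%), 4 and 2 in HDB 10 mm (25.7% and 23.4%) and 3 and 2 in HDB 15 mm skin (23.8% and 22.6%). Medians of the 10 log2 fold changes were 0.27, 0.52, 0.14 and 0.31 in that order of comparisons, beside 0.03, 0.06, 0.02 and 0.02 over all genes tested. In bulk skin, fewer cells of a type and less RNA per cell cannot be told apart.

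**Figure D2:**
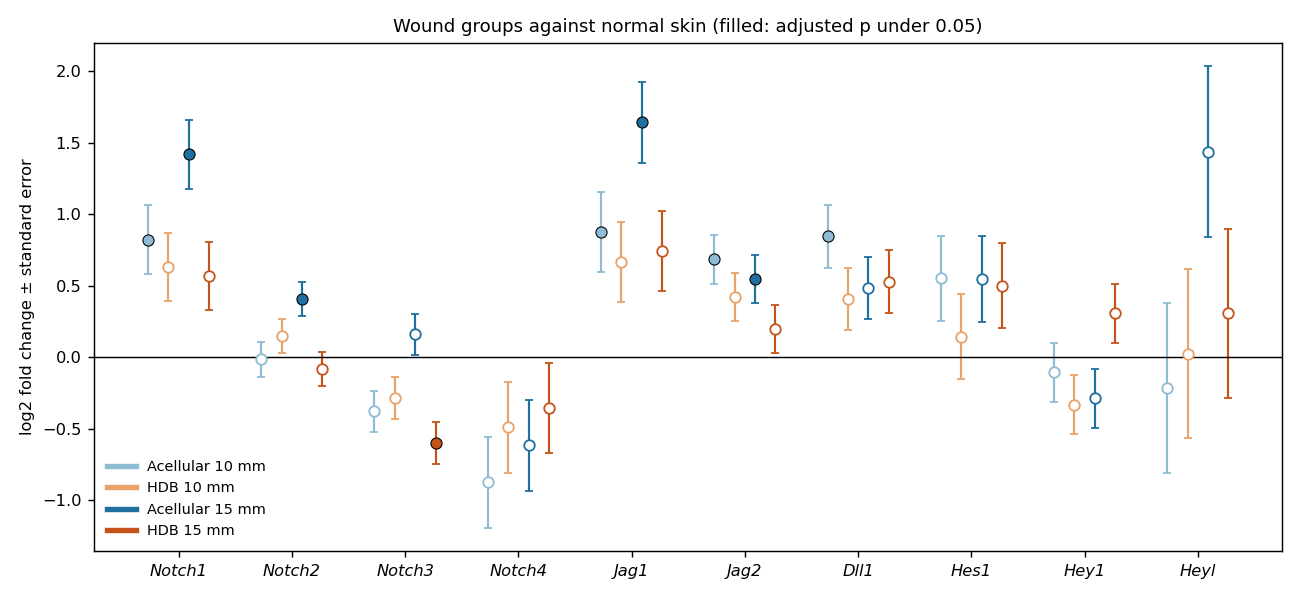
Log2 fold change against normal skin of each gene in the 4 wounded groups, with standard errors. Filled points are called (adjusted p under 0.05), and Notch1 and Jag1 in acellular 15 mm skin reach 1.42 and 1.64.

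Notch1 was 1.77-fold higher in acellular 10 mm skin (log2 fold change 0.82, standard error 0.239, adjusted p = 0.0318) and 2.68-fold higher in acellular 15 mm skin (log2 fold change 1.42, standard error 0.242, adjusted p = 0.00372). Jag1, its ligand, was 1.84-fold higher at 10 mm (log2 fold change 0.88, standard error 0.281, adjusted p = 0.0452) and 3.12-fold higher at 15 mm (log2 fold change 1.64, standard error 0.286, adjusted p = 0.00417). Both genes were called at 15 mm without any 1 of the 6 samples compared, and without acellular 15 mm replicate 1 the log2 fold changes were 0.99 for Notch1 (adjusted p = 0.00292) and 1.23 for Jag1 (adjusted p = 0.00636). A fit to the acellular 15 mm and normal samples alone called Jag1 and not Notch2, Jag2 or Notch1, the last with a log2 fold change of 1.45 at an adjusted p of 0.05002, just over the threshold. In HDB skin neither Notch1 nor Jag1 was called in the fit of all groups, with log2 fold changes of 0.63 and 0.57 for Notch1 and 0.66 and 0.74 for Jag1 at 10 mm and 15 mm, although no HDB sample overlapped normal skin for either gene. Fits to only the groups compared called both in HDB skin, Notch1 with adjusted p of 0.0138 and 0.0321 and Jag1 with 0.0179 and 0.0322 at 10 mm and 15 mm, against 20.2% and 22.9% of all genes. At 10 mm of wound size, 3 of the 10 genes (Notch1, Jag1 and Jag2) had an unadjusted p under 0.05 for HDB against normal skin, against 31.6% of all genes, and DESeq2 called Notch1 alone of the 10 and 24.8% of all genes.

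Jag2 rose 1.61-fold in acellular 10 mm (log2 fold change 0.69, standard error 0.170, adjusted p = 0.0184) and 1.46-fold in acellular 15 mm skin (log2 fold change 0.55, standard error 0.169, adjusted p = 0.0304). Dll1 rose 1.80-fold in acellular 10 mm skin (log2 fold change 0.85, standard error 0.220, adjusted p = 0.0218), and its value of 0.48 at 15 mm (log2) was not called (adjusted p = 0.109). Without acellular 15 mm replicate 1 that value was 0.73 and was called (adjusted p = 0.0107). DESeq2 and a fit to the acellular 10 mm and normal samples alone each called 6 of the 10 at 10 mm, the 4 above and, lower, Notch3 (adjusted p = 0.0189 and 0.0265) and Notch4 (adjusted p = 0.0195 and 0.0235), against 32.9% and 42.0% of all genes. No call at 10 mm was independent of single samples. Without acellular 10 mm replicate 1, normal replicate 2 or normal replicate 3, none of the 4 was called, with adjusted p from 0.0616 to 0.148, and 5.14%, 7.04% and 5.8% of all genes were called. Without normal replicate 1 only Jag2 was called, without acellular 10 mm replicate 3 only Jag2 and Dll1, and without acellular 10 mm replicate 2 Jag2, Dll1 and also Notch4. In these fits 11.6%, 11.8% and 11.9% of all genes were called.

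Notch2 rose 1.33-fold in acellular 15 mm skin (log2 fold change 0.41, standard error 0.120, adjusted p = 0.0258). Its call and that of Jag2 at 15 mm depended on single samples. Notch2 had an adjusted p of 0.0729 without acellular replicate 1, 0.0871 without normal replicate 1 and 0.0732 without normal replicate 3, and Jag2 one of 0.0776 without acellular replicate 2, 0.110 without normal replicate 2 and 0.112 without normal replicate 3. With the length trend of each sample removed, Notch1 and Jag1 were called in acellular 15 mm skin, and Notch2 and Jag2 were not, against 28.4% of all genes. Without acellular 15 mm replicate 3, Hes1 and Heyl, higher, and Notch4, lower, were called beside the 4, with adjusted p of 0.0470, 0.0297 and 0.0374, against 37.3% of all genes. DESeq2 called Heyl beside the 4, and 40.2% of all genes.

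Notch3 was the single gene of the 10 that edgeR called in the fit of all groups between HDB 15 mm and normal skin, at 0.659-fold (log2 fold change -0.60, standard error 0.145, adjusted p = 0.0372). A fit to those groups alone called 4 of the 10, Notch1 (adjusted p = 0.0321), Jag1 (0.0322), Dll1 (0.0472) and Notch3 (0.0348), and 22.9% of all genes. It was no longer called without any 1 of the samples but HDB 15 mm replicate 2, with adjusted p from 0.0782 to 0.158. Its log2 fold changes in acellular 10 mm, HDB 10 mm and acellular 15 mm skin were -0.38, -0.29 and 0.16, none called by edgeR in the fit of all groups. Mural cell markers (10 genes, among them Rgs5, Pdgfrb, Myh11 and Des) summed to 2931 to 4115 CPM in normal skin and to 676 to 2173 CPM in wounded skin. Des, which the paper also uses as a marker of myofibers, ranged by itself from 93.0 to 2683 CPM over the samples. In HDB 15 mm against normal skin 0 of the 10 markers were called, against 5.18% of all genes, with a median log2 fold change of -0.36. The part of these markers in the Notch3 result was not tested.

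HDB and acellular skin were then compared within each wound size. At 10 mm none of the 10 genes was called by edgeR or by DESeq2, and none had an unadjusted p under 0.05. Over all genes 0% were called by edgeR and 0.111% by DESeq2, and 3.53% had an unadjusted p under 0.05. All 10 had an adjusted p of 0.9999. Notch1, Jag2, Dll1 and Hey1 were lower in every HDB than in every acellular sample, with log2 fold changes of -0.19, -0.27, -0.44 and -0.23, where 6.47% of all genes were separate in that direction, and none was separate in the other, against 4.53%. The median log2 fold change of the 10 was -0.20, beside -0.01 over all genes.

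At 15 mm, 2 of the 10 genes, the receptors Notch2 and Notch3, fell in HDB skin and none rose, where 2.93% of all genes were called, 2.35% lower and 0.579% higher. Notch3 was 0.59-fold (log2 fold change -0.76, standard error 0.145, adjusted p = 0.0252), at 62.3 ± 12.5 against 106 ± 9.34 CPM (SD, n = 3 each). Notch2 was 0.712-fold (log2 fold change -0.49, standard error 0.121, adjusted p = 0.04998), at 95.4 ± 5.37 against 134 ± 17.02 CPM, its adjusted p just under the threshold. For both receptors the 3 HDB samples lay wholly below the 3 acellular ones. The list mean of markers of mural cells, which carry Notch3, was 6.30 to 6.74 in HDB and 5.37 to 6.36 in acellular 15 mm skin (log2 CPM), overlapping, with 0 of 10 markers called and a median log2 fold change of 0.36. Their part in the Notch3 result was not tested.

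**Figure D3:**
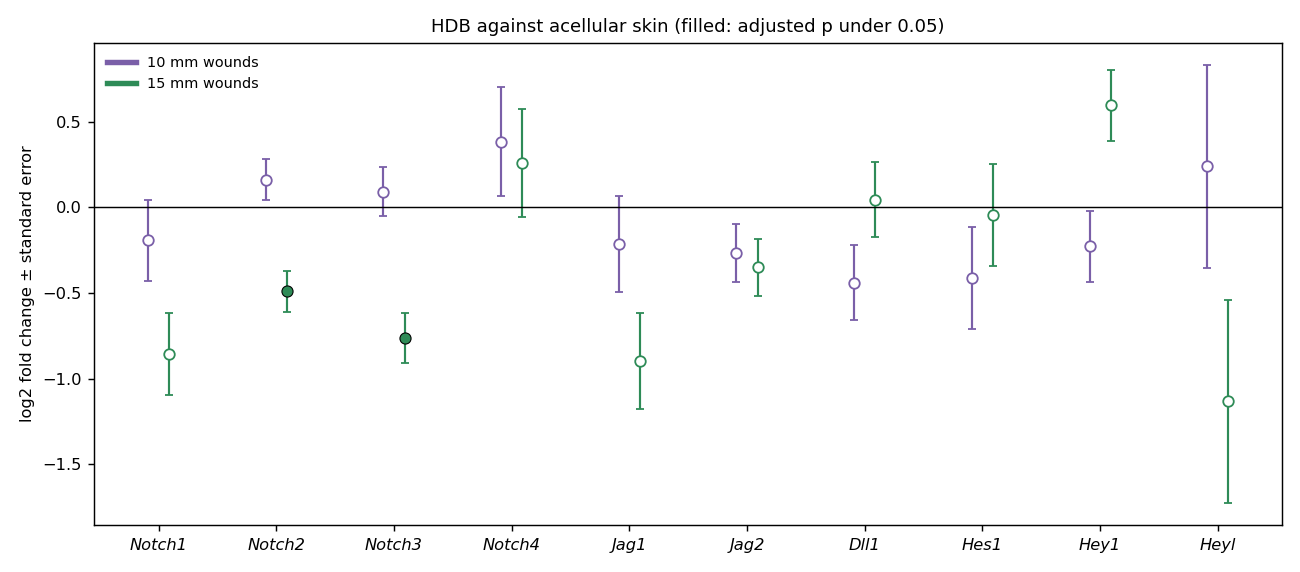
Log2 fold change of HDB against acellular skin for each gene in 10 mm and 15 mm wounds, with standard errors. Filled points are called, which are Notch2 at -0.49 and Notch3 at -0.76 in 15 mm wounds.

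Some other differences at 15 mm were larger but more variable between samples. Notch1 differed by -0.86 in log2 with separate groups (standard error 0.239, adjusted p = 0.0703), and Jag1 by -0.90 with overlapping groups (standard error 0.281, adjusted p = 0.0927). Heyl differed by -1.13 (standard error 0.594, adjusted p = 0.272). Hey1 was the only gene with all HDB above all acellular samples, at 15.6 ± 1.35 against 10.3 ± 2.98 CPM, which is 0.60 in log2 (standard error 0.207, adjusted p = 0.119). Separate groups were seen for 3 genes in the lower and 1 in the higher direction, where 11.7% and 8.55% of all genes were separate. Notch4, Dll1 and Hes1 had log2 fold changes of 0.26, 0.04 and -0.05, with adjusted p from 0.650 to 0.942, and Jag2 one of -0.35 (adjusted p = 0.235). An unadjusted p under 0.05 was reached by 5 of the 10 (Notch1, Notch2, Notch3, Jag1 and Hey1), against 23.2% of all genes. The median over the 10 genes was -0.42, beside 0.00 over all genes.

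These 15 mm values leaned on acellular replicate 1. Without it the log2 fold change was -0.43 for Notch1, -0.49 for Jag1, -0.10 for Heyl and 0.39 for Hey1 (adjusted p = 0.236), against -0.38 for Notch2 (adjusted p = 0.101) and -0.69 for Notch3 (adjusted p = 0.0603), and none of the 10 genes and 0.979% of all genes were called. That sample also held the most hair marker signal, and the part of the hair and proliferation marker differences in these results was not tested. No gene of the 10 was called either without HDB replicate 1, 2 or 3, with an adjusted p for Notch3 of 0.0747, 0.0538 and 0.128, and 0% of all genes was called in each of these 3 fits. Without acellular replicate 3, Notch1 (adjusted p = 0.0190) and Jag1 (adjusted p = 0.0165) were called beside Notch2 and Notch3, and 14.9% of all genes. Same-numbered acellular and HDB samples deviated together at 15 mm, and under a replicate block Notch3 was still called (adjusted p = 0.0463) and Notch2 was not (adjusted p = 0.0784). DESeq2 called 5 of the 10 (Notch1, Notch2, Notch3, Jag1 and Hey1) and 14.1% of all genes, whereas a fit to the acellular and HDB 15 mm samples alone called none of the 10 and 0% of all genes.

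Transcript length moved with the same contrast. The 3 receptors Notch1, Notch2 and Notch3 have transcripts of 9488, 10500 and 8016 bases, longer than 97.0%, 97.9% and 94.3% of the genes with a length. The mean deviation of log2 CPM from the all-sample mean was taken in the genes of the top length quartile (transcripts over 4764 bases) minus the bottom one. It was 0.14 to 0.33 in the acellular 15 mm samples and -0.38 to -0.14 in the HDB 15 mm samples, against 0.005 to 0.05 in normal skin. In the acellular 10 mm samples it was -0.19 to 0.14, and in the HDB 10 mm samples -0.10 to 0.23. With each sample's length trend removed, none of the 10 genes was called at 15 mm, and 0 of all 15085 genes with a length were. Notch2 then had a log2 fold change of -0.08 (adjusted p = 0.724) and Notch3 one of -0.46 (adjusted p = 0.222), while Notch1 moved to -0.49, Jag1 to -0.74 and Hey1 to 0.45.

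**Figure D4:**
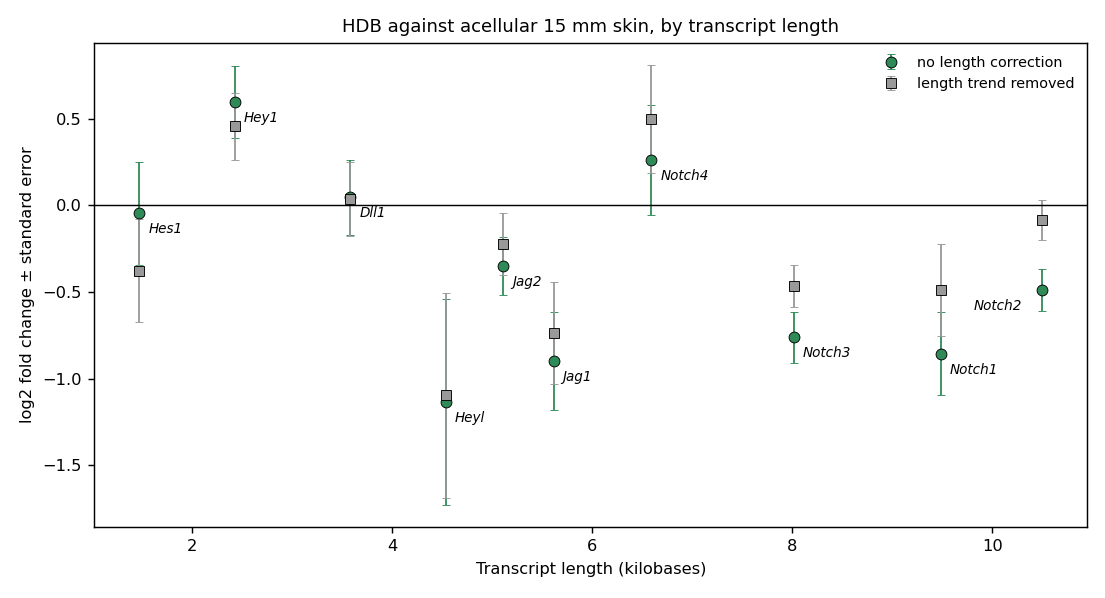
Log2 fold change of HDB against acellular 15 mm skin (with standard errors) for each gene against the length of its transcript, before and after each sample's length trend was removed. The longest transcript, Notch2, moved from -0.49 to -0.08.

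Over both sizes together none of the 10 genes was called and 0% of all genes were, while 4 (Notch1, Notch3, Jag1 and Jag2) had an unadjusted p under 0.05, against 15.8% of all genes, and DESeq2 called Notch3 alone of the 10 and 2.76% of all genes. The difference in HDB effect between the sizes was called for none of the 10, against 0% of all genes. Notch3 (-0.85, standard error 0.205), Notch2 (-0.65, standard error 0.170) and Hey1 (0.82, standard error 0.292) had an unadjusted p under 0.05 for that difference, against 13.4% of all genes, with adjusted p of 0.133, 0.147 and 0.242. DESeq2 called Notch2 and Notch3, and 5.65% of all genes. Hey1 was lower in all HDB than in all acellular samples at 10 mm and higher in all at 15 mm, as were 0.449% of all genes and no other gene of the 10, and 0.748% of all genes separated in opposite ways at the sizes, in either order. At 10 mm the gap was small, from 10.8 CPM in the highest HDB to 11.0 CPM in the lowest acellular sample.

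Notch1 and Jag1, a receptor and its ligand, were highest in the samples with the most hair marker signal. Those samples were acellular 15 mm replicate 1 (a list mean of 9.72 in log2 CPM), acellular 15 mm replicate 2 (6.54), acellular 10 mm replicate 1 (6.03) and HDB 15 mm replicate 1 (5.32). They were, in the same order, the 4 highest samples for Jag1, at 394, 249, 178 and 166 CPM, and the first 3 were also the 3 highest for Notch1, at 444, 235 and 215 CPM. Normal skin was lowest in the list (-1.47 to -1.41), in Notch1 and in Jag1. HDB 10 mm samples, with list means from -0.15 to 0.77, still held 165 to 173 CPM of Notch1 and 124 to 143 CPM of Jag1, above all normal samples. Compared with normal skin, 8 of the 20 markers were called higher in acellular and 0 in HDB skin at 10 mm, against 9.77% and 6.1% of all genes. At 15 mm 20 were called higher in acellular and 1 in HDB skin, against 17.6% and 2.67% of all genes. The median log2 fold changes of the list were 8.64, 2.85, 12.5 and 8.11 in that order. With each sample left out in turn the counts ranged from 0 to 8, 0 to 0, 10 to 20 (17 without acellular 15 mm replicate 1) and 0 to 1. In those fits 5.14% to 11.9%, 0.501% to 17.5%, 14.8% to 37.3% and 0.218% to 8.61% of all genes were called in either direction. The part of hair follicle cells in the Notch1 and Jag1 results was not tested. Proliferation markers summed to 95.9 to 118 CPM in normal and 268 to 1589.8 CPM in wounded skin. At 10 mm 8 of the 8 were called higher than normal in acellular and 6 in HDB skin, at 15 mm 8 and 1, and their part was likewise not tested. Leaving out each sample in turn gave 1 to 6 and 0 to 7 at 10 mm, and 8 in each fit and 0 in each at 15 mm.

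**Figure D5:**
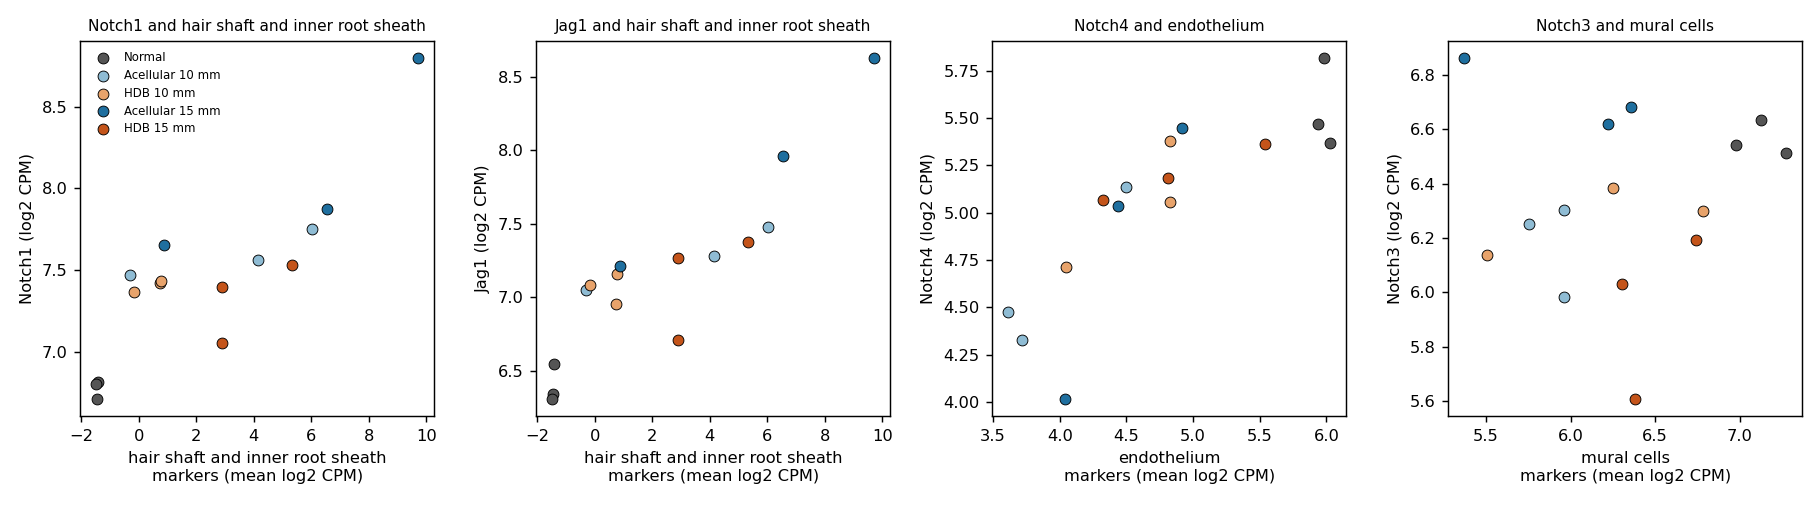
Log2 CPM of Notch1 and Jag1 against the mean log2 CPM of hair shaft and inner root sheath markers, of Notch4 against endothelial markers and of Notch3 against mural cell markers, where each point is 1 of 15 samples. Acellular 15 mm replicate 1 lies at the upper right for Notch1 and Jag1, with a hair list mean of 9.72, and normal skin is highest in the endothelial list.

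Since Notch1 and Jag1 were high in the same samples, the 250 bases before each start site are shown, 5′ to 3′ in the direction of transcription, with the GC box GGGCGG or its reverse complement CCGCCC in capitals. Sequences are from RefSeq on GRCm38.p6. The Notch1 stretch lies at chr2:26503823-26504072 and the Jag1 stretch at chr2:137116521-137116770, both on the minus strand.
Notch1: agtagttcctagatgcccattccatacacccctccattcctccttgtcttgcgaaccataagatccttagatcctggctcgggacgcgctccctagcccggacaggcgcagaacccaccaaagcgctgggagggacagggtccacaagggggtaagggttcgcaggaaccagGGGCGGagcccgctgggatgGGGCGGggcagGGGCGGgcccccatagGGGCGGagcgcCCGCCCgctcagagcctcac
Jag1: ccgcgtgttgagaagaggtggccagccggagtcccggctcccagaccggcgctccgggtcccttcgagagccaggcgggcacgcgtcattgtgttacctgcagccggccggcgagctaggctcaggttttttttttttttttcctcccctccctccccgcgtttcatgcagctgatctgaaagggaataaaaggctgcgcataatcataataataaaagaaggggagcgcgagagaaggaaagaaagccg
The Notch1 stretch is 66.0% G or C and holds 5 GC boxes between bases -78 and -20, and the Jag1 stretch is 57.2% G or C and holds none. Promoters were matched for 7 of the 10 genes, Hes1, Hey1 and Heyl being the others. GC boxes were found in the 300-base windows (50 bases after the start included) of Notch1, Notch2, Jag2 and Notch3 and not in those of Jag1, Notch4 and Dll1, while 35.7% of 32851 windows of all genes hold one. TGGGAA, the core letters bound by RBPJ, or TTCCCA on the other strand, was in no window of the 7 genes, and in 25.6% of all windows.

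Notch4 was called in no comparison by edgeR in the fit of all groups and is set here beside the endothelial markers. Its log2 fold changes against normal skin were -0.88 in acellular 10 mm (adjusted p = 0.0667), -0.62 in acellular 15 mm (adjusted p = 0.152), -0.49 in HDB 10 mm (adjusted p = 0.304) and -0.36 in HDB 15 mm skin (adjusted p = 0.495). The 12 endothelial markers (among them Pecam1, Cdh5 and Kdr) summed to 863 to 896 CPM in normal skin, 166 to 313 in acellular 10 mm, 234 to 424 in acellular 15 mm, 231 to 397 in HDB 10 mm and 290 to 637 in HDB 15 mm skin, with none at 0 in any sample. In the same order of wounded groups (acellular 10 mm, acellular 15 mm, HDB 10 mm and HDB 15 mm) 12, 12, 9 and 1 of the 12 were called lower than normal. Of all genes, 10.6%, 12.6%, 6.23% and 2.51% were called lower in these comparisons. The median log2 fold changes of the 12 were -2.00, -1.46, -1.34 and -0.95. Across the 15 samples Notch4 correlated at 0.839 with the endothelial, 0.831 with the macrophage and 0.804 with the mural cell list mean (Pearson). The hair and proliferation lists gave -0.736 and -0.780. The part of any of these markers in the Notch4 result was not tested. Relative to the mean of the endothelial list, no wounded group had a lower Notch4 mean than normal skin. The difference of its log2 CPM from the list mean was -0.66 to -0.17 in normal skin, 0.62 to 0.86 in acellular 10 mm, -0.02 to 0.60 in acellular 15 mm, 0.23 to 0.66 in HDB 10 mm and -0.17 to 0.74 in HDB 15 mm skin.

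Of 42 other Notch pathway genes listed beside the 10, all were in the table and 39 passed the filter. Per kilobase, the highest in each role were Psenen of gamma-secretase (69.5 CPM per kb), the target gene Nrarp (37.3), the ubiquitin ligase family member Dtx3 (26.1), the nuclear cofactor Snw1 (19.6), the glycosyltransferase Poglut1 (17.3) and the non-canonical ligand Dlk2 (7.88). In acellular 10 mm skin 5 of the 39 rose and 3 fell against normal skin, in acellular 15 mm 11 rose and 2 fell, in HDB 10 mm 3 rose and in HDB 15 mm 2 rose, where 20.3%, 30.2%, 12.3% and 5.18% of all genes were called. Median log2 fold changes of the 39 were -0.004, 0.17, 0.05 and 0.10, beside 0.03, 0.06, 0.02 and 0.02 over all genes. Between HDB and acellular skin none was called at 10 mm (0% of all genes) and 2 fell at 15 mm (2.93% of all genes called).

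Nrarp, a direct Notch target that feeds back on the pathway, was at 42.2, 41.6 and 54.5 CPM in normal skin, 146, 108 and 85.6 in acellular 10 mm, 69.5, 105 and 86.1 in HDB 10 mm, 138, 149 and 82.2 in acellular 15 mm and 127, 74.4 and 135 in HDB 15 mm skin. All 12 wounded samples lay above the normal ones. It rose 2.46-fold in acellular 10 mm (adjusted p = 0.0128), 2.67-fold in acellular 15 mm (adjusted p = 0.00639) and 2.44-fold in HDB 15 mm skin (adjusted p = 0.0325), the last call being lost without any 1 of the samples but HDB replicate 2 (adjusted p from 0.0851 to 0.147). Dll4, the Delta-like ligand of endothelial cells, fell to 0.400-fold in acellular 10 mm (adjusted p = 0.0277) and 0.432-fold in acellular 15 mm skin (adjusted p = 0.0283), beside the lower endothelial markers given above, and -0.95 in log2 without acellular 15 mm replicate 1 (adjusted p = 0.0822).

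Neurl1b, an E3 ligase that acts on ligand endocytosis, rose 2.07-fold in acellular 10 mm (adjusted p = 0.0125) and 2.11-fold in HDB 10 mm skin (adjusted p = 0.0181). The ligase Mib1, also needed for ligand endocytosis, rose 1.54-fold in acellular 15 mm (adjusted p = 0.00534) and 1.36-fold in HDB 10 mm skin (adjusted p = 0.0345). With the length trend removed its log2 fold change in HDB 10 mm skin was 0.39 and was not called (adjusted p = 0.0834). In acellular 15 mm skin it was 0.42 (adjusted p = 0.0447), and 0.41 and not called with the replicate block added (adjusted p = 0.0695). A fit to the acellular 15 mm and normal samples alone did not call it either (adjusted p = 0.0549). Furin, the convertase that cuts the receptors on their way to the surface, rose 1.51-fold in acellular 15 mm skin (adjusted p = 0.00462). Adam17, a receptor-cutting protease, rose 1.30-fold in HDB 10 mm skin (adjusted p = 0.0453). Maml1, a Mastermind coactivator, rose 1.27-fold in acellular 10 mm (adjusted p = 0.0277) and Poglut1 1.40-fold in HDB 15 mm skin (adjusted p = 0.0332). Genes that fell were Pofut1 (0.742-fold, adjusted p = 0.0164) and Mfng (0.318-fold, adjusted p = 0.0369), enzymes that put sugars on the receptors, in acellular 10 mm, and Psenen (0.745-fold, adjusted p = 0.0355) in acellular 15 mm skin. Psenen has a transcript of 708 bases, and with the length trend removed its log2 fold change went from -0.42 to -0.02 (adjusted p = 0.884).

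Most of these pathway calls depended on single samples. With each of the 6 samples compared left out in turn, Furin and Mib1 in acellular 15 mm skin and Nrarp there were called in 6 of 6 fits, Neurl1b and Nrarp in acellular 10 mm skin in 4, Pofut1 in 3 and Psenen in 2. The other calls named above against normal skin were each kept in 1 of 6 fits, and calls of genes not named are not given by gene. Those kept in 1 fit were Neurl1b, Mib1 and Adam17 in HDB 10 mm skin (without HDB replicate 1), Dll4 and Mfng in acellular 10 mm (without acellular replicate 2), Maml1 in acellular 10 mm (without acellular replicate 3), Dll4 in acellular 15 mm (without acellular replicate 3) and Nrarp and Poglut1 in HDB 15 mm skin (without HDB replicate 2). Their adjusted p was up to 0.155 in the fits that lost the call.

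Between HDB and acellular 15 mm skin, Spen, a corepressor that binds RBPJ, fell to 0.396-fold (log2 fold change -1.34, standard error 0.222, adjusted p = 0.0229), from 86.9, 66.5 and 82.5 CPM in acellular to 30.4, 41.3 and 21.7 CPM in HDB skin. Mib1 fell to 0.687-fold (log2 fold change -0.54, standard error 0.118, adjusted p = 0.0373), from 212, 168 and 158 to 124, 127 and 119.6 CPM. Neither pair of groups overlapped. With the length trend removed their log2 fold changes were -0.90 (adjusted p = 0.149) and -0.15 (adjusted p = 0.600). With the replicate block Mib1 was not called (adjusted p = 0.0634), and neither was called without HDB replicate 1, 2 or 3. In each of these 3 fits 0% of all genes was called. A fit to the acellular and HDB 15 mm samples alone gave both an adjusted p of 0.4645. Without acellular replicate 1, Spen was called (adjusted p = 0.0419) and Mib1 was not (adjusted p = 0.0641).

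Across the 15 samples, the genes outside the list whose log2 CPM followed each gene most closely were named by Pearson correlation, as a description over samples that fall into groups. The closest were Cbx2 (0.984) and Efnb1 (0.974) for Notch1, and Cdh3 (0.984) and Gmeb2 (0.982) for Jag1. Tmem131 (0.949) was closest to Notch2, Ankrd52 (0.963) to Notch3 and Tm6sf1 (0.972) to Notch4. Ajuba (0.934) was closest to Jag2, Lmna (0.947) to Dll1, Fam50a (0.926) to Hes1, Prph (0.895) to Hey1 and Tmem184c (0.918) to Heyl. Within groups, as deviations from the group means, these pairs gave from 0.812 (Prph with Hey1) to 0.9715 (Gmeb2 with Jag1).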

How the data were processed

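Poly(A) RNA of 15 skin samples had been captured with oligo(dT) and primed with random hexamers. The authors aligned the reads and deposited 1 table of expected counts per gene, not normalized, for which the submitters' processing notes name HISAT2 2.0.4, Bowtie2 2.2.5, RSEM 1.2.12 and GRCm38.p6. The expected counts were rounded, filtered with filterByExpr (15369 of 18929 genes) and tested with edgeR 4.0.16 (R 4.3.3) by TMM normalization, quasi-likelihood fits of the 5 group means and Benjamini-Hochberg adjustment over all genes tested, at 0.05. Log2 CPM used a prior count of 2. Gene positions are from RefSeq on GRCm38.p6, and transcript lengths are from GENCODE vM21. Replicates of a group correlated at 0.853 to 0.989 (Pearson, over genes), and every pair differed beyond sampling noise. Same-numbered HDB and acellular 15 mm samples deviated together (0.397, 0.167 and 0.183 over genes, all above 0.1), so a replicate block is given there. Named were the 10 genes, the pathway genes called (at most 3 per direction and comparison, smallest adjusted p) or highest per role, and the genes most correlated with each of the 10. Members and lists were chosen with earlier results of these data known. Alternatives were other filters, DESeq2 1.42.0, fits of the compared groups, the block, removal of length trends and each sample left out, the last also for the marker lists, which was chosen after seeing the data. The tests were tested on simulated data.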

Additional observations from a re-analysis of the deposited data

Results flagged for a closer look

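Hey1 was flagged because its HDB effect went opposite ways at the wound sizes. All 3 HDB samples lay below all 3 acellular samples at 10 mm and above all 3 at 15 mm, a pattern shown by 0.449% of all genes. At 10 mm the highest HDB sample was at 10.8 and the lowest acellular sample at 11.0 CPM, and the effect there was not called (adjusted p = 0.9999 by edgeR). The effect at 15 mm minus that at 10 mm was 0.82 on the log2 scale (standard error 0.292), with an adjusted p of 0.242 by edgeR, and 0.61 to 1.02 when each sample was left out in turn.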

How the results depend on the processing

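For HDB against acellular skin at 15 mm, 2 of the 10 genes and 2.93% of all genes were called. With no filter on low counts 1 was called (1.06% of all genes), and by DESeq2 5 (14.1%). A fit of those groups alone called 0 (0% of all genes), and 1 was called with the replicate block (1.16%). With the length trend removed 0 were called, with or without the block (0% of all genes). DESeq2 called 1 over both sizes (2.76% of all genes), 2 for the difference between sizes (5.65%) and 1 in HDB 10 mm against normal skin (24.8%), where edgeR called 0 of the 10. Against normal skin, fits of only the groups compared gave 1 for acellular 15 mm, 2 for HDB 10 mm and 4 for HDB 15 mm skin (4, 0 and 1 in the fit of all groups), where they called 6.57%, 20.2% and 22.9% of all genes. For acellular 10 mm against normal skin (4 called), DESeq2 and the fit of those groups each called 6 (32.9% and 42.0% of all genes). There 3 were called with no filter (14.4%) and 3 with length removal and the block together (16.9%). In acellular 15 mm against normal skin DESeq2 called 5 (40.2% of all genes), and removing length trends left 2, without or with the block (28.4% and 23.1%). In HDB 15 mm against normal skin, 0 were called with the replicate block, alone or with length removal (1.54% and 2.0% of all genes). With each sample left out in turn, the count ranged from 0 to 0 at 10 mm (0% of all genes), 0 to 4 at 15 mm (0% to 14.9% of all genes, 4 and 14.9% without acellular replicate 3), 0 to 1 over both sizes (1 and 1.47% of all genes without acellular 15 mm replicate 3) and 0 to 0 for the difference between sizes. Against normal skin it ranged from 0 to 3 for acellular (5.14% to 11.9% of all genes) and 0 to 0 for HDB skin at 10 mm (0.501% to 17.5%), and from 2 to 7 for acellular (14.8% to 37.3%) and 0 to 1 for HDB skin at 15 mm (0.218% to 8.61%). The causes were not tested.

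Directions that turned were all of values that were not called. With length trends removed, and with the block added, these were Notch2 in acellular 10 mm (0.0366 and 0.0349) and HDB 15 mm (0.112 and 0.110) and Notch3 in acellular 15 mm against normal skin (-0.00334 and -0.00601), and, for the difference between sizes, Notch4 (0.194 and 0.213), Jag2 (0.0708 and 0.0449) and Hes1 (-0.0707 and -0.0639). Heyl in HDB 10 mm against normal skin turned with the replicate block (-0.0151), length removal (-0.000285) and both (-0.0354). Leaving out samples gave ranges across 0 for Notch2 (-0.0870 to 0.0491) and Heyl (-0.839 to 0.0886) in acellular 10 mm and Heyl in HDB 10 mm (-0.17 to 0.27) against normal skin, for HDB against acellular skin in Notch4 (-0.0480 to 0.60), Dll1 (-0.20 to 0.19) and Hes1 (-0.31 to 0.35) at 15 mm and Heyl at 10 mm (-0.0629 to 0.865) and over both (-0.64 to 0.0678), and for the difference between sizes in Notch4 (-0.43 to 0.21) and Jag2 (-0.27 to 0.0613). Of 1394 recomputed values, 1190 kept direction and call, 144 lost a call, 25 gained one and 35 turned.

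Same-numbered samples all correlated above 0.1 only between HDB and acellular 15 mm skin. The labels do not say what the replicate numbers mark, and differently numbered samples were not compared. HDB 15 mm and normal skin gave 0.11, 0.14 and 0.02. Outside HDB against acellular 15 mm skin, the block changed the call of Notch3 alone of the 10 genes, in HDB 15 mm against normal skin. Among the other pathway genes it ended the calls of Mib1 (adjusted p = 0.0555) and Adam17 (0.0578) in HDB 10 mm and of Poglut1 (0.0618) and Nrarp (0.0601) in HDB 15 mm skin. What part depth and the number of samples had in the calls was not tested.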
